A study of Rattus norvegicus with 10 samples.

Results

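The enzymes described here remove reactive oxygen species: 3 superoxide dismutase genes (Sod1, Sod2 and Sod3), the catalase gene Cat, 2 glutathione peroxidase genes (Gpx1 and Gpx3), 2 peroxiredoxin genes (Prdx1 and Prdx2), the thioredoxin gene Txn1 and Selenop, which encodes selenoprotein P. They were followed in cultured rat microglia with and without interferon gamma (IFN-gamma). Members were taken by gene symbol, as every probe set whose only annotated symbol was 1 of these 10 genes. That gave 18 of the 8740 probe sets tested, for 9 of the 10 genes; no probe set carried Txn1 as its only symbol. Sod1, Cat and Gpx1 had 3 probe sets each, Sod3, Gpx3 and Selenop had 2 each, and Sod2, Prdx1 and Prdx2 had 1 each.

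Microglia are the resident macrophages of the brain. The cells were grown from neonatal rat brain, with tissue of a single brain in each flask, in medium with 15% fetal calf serum, and were plated on day 15. The IFN-gamma group comprised 3 cultures that received fresh medium with 100 U/ml IFN-gamma for 16 hours, and IFN-gamma culture 1 was hybridised to 3 technical arrays (1a, 1b and 1c). The control group comprised 5 independent cultures (numbered 1, 2, 3, 5 and 6) that received fresh medium alone. All groups shared the serum-containing medium and the neonatal source, and strain and sex are not given in the sources used here. Nothing in the labels says whether an IFN-gamma culture and a control culture of the same number came from the same brain.

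Superoxide dismutases convert superoxide to hydrogen peroxide, in the cytosol (Sod1), in the mitochondrial matrix (Sod2) and outside the cell (Sod3). Catalase, the glutathione peroxidases and the peroxiredoxins then reduce the peroxide, the glutathione peroxidases with electrons from glutathione and the peroxiredoxins with electrons from thioredoxin. In macrophages and microglia this defence works beside the NADPH oxidase, which makes superoxide during activation, and Sod2 is known as a target of inflammatory signalling through NF-kappa B. Gpx1 and Gpx3 are selenoproteins, and selenoprotein P is a secreted protein that carries selenium between cells.

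The promoters of the genes whose values the results turn on are shown first, so that a reader can see the sequence in front of each. Promoter sequences came from RefSeq (rat assembly GRCr8), with 250 bases before and 50 after the annotated start of transcription, and were found for 9 of the 10 genes (Txn1 included, Sod3 not). Capitals mark matches to the searched motifs. These were the interferon gamma activated site TTCNNNGAA, the interferon-stimulated response element (GAAA, any 2 bases, GAAA), the antioxidant response element core TGACNNNGC and the kappa B site, each on both strands. Selenop is shown because it had the largest difference with IFN-gamma among the members, Gpx3 because it was the other member that fell, and Sod2 because 1 control culture stood apart at it. The Selenop window lies on the plus strand at chr2:54225486-54225785, the Gpx3 window on the plus strand at chr10:39529085-39529384 and the Sod2 window on the minus strand at chr1:50050119-50050418.
Selenop: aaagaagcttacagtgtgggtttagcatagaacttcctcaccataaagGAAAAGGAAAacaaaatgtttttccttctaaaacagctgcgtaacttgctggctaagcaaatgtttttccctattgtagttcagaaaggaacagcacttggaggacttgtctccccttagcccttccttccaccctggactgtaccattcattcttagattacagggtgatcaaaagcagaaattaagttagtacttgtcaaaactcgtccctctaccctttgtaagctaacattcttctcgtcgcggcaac
Gpx3: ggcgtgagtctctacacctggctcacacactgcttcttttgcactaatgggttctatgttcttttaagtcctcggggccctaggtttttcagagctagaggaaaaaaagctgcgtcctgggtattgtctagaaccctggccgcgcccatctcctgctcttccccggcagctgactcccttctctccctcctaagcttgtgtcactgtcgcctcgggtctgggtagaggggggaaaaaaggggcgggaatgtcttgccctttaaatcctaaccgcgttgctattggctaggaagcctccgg
Sod2: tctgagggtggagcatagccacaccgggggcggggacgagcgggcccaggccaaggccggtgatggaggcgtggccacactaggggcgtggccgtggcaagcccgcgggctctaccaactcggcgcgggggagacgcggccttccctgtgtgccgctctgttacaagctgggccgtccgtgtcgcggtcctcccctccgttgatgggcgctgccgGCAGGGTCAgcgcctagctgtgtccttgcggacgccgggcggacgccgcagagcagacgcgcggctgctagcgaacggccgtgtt

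The Selenop window held 1 interferon-stimulated response element match, 202 bases upstream of the start, which 3.92% of the 33469 promoter windows in the table also held. A second annotated Selenop start had a window with none of the 4 motifs. The Sod2 window held 1 antioxidant response element match, 35 bases upstream on the opposite strand (12.1% of all windows), and none of the other 3 motifs. Gpx3 held none of the 4 in these letters, and neither did Sod1, Cat, Prdx2 or Txn1. Among the members not shown, Prdx1 held an antioxidant response element match 135 bases upstream and Gpx1 held a kappa B match 206 bases upstream (7.51% of all windows). The interferon gamma activated site was in none of the member windows and in 8.87% of all windows. GC content was 41.7% in the Selenop window, 54.7% in that of Gpx3 and 72% in that of Sod2, against a median of 51.7% over all windows.

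Levels below are log2(signal + 16) after quantile normalisation of the 10 arrays, so a signal of 0 lies at 4 and fold changes of dim probe sets are understated. The 3 technical arrays were averaged to 1 culture, and differences (IFN-gamma minus control) were tested with limma over 3 and 5 cultures. The p-values were adjusted by Benjamini-Hochberg over all 8740 probe sets, with a call at an adjusted p under 0.05. Median array signals overlapped between groups, at 14.5 to 20.9 over the IFN-gamma cultures and 7.4 to 20.3 over the controls (exact permutation p = 0.536, two-sided; the smallest p this design allows is 0.0179). The lowest, 7.4, was that of control culture 3. The 3'/5' signal ratios of array control probe sets for GAPDH and beta-actin also overlapped (exact permutation p = 0.25 and 0.518, two-sided). Over the whole array 81 probe sets were higher (0.927%) and 53 lower (0.606%), so 60.4% of calls were higher. That share was 97.4% with no scaling between arrays, 78.7% with array medians subtracted and 68% with a trimmed mean.

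With IFN-gamma most of the oxidant defence genes differed from the controls by no more than the spread between cultures. Selenop was 3.37-fold lower and Gpx3 1.90-fold lower with IFN-gamma, both past the threshold. Prdx2 was 2.37-fold higher in the measured means and lay just outside it (adjusted p = 0.0501). Sod2 had the widest spread of any member over the controls, and a single control culture lay far above the others. Of the 18 probe sets, 2 were called lower, against 0.606% of all probe sets, and 0 were called higher by limma, against 0.927%. At an unadjusted p under 0.05, 2 of 18 were lower and 1 was higher, against 4.76% and 5.74% of all probe sets. All 3 IFN-gamma cultures were below all 5 controls at 2 of the 18 and above them at 1, against 3.4% and 4.28% of all probe sets. The median difference of the 18 was -0.04 on the log2 scale, and that of all probe sets was -0.02.

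**Figure D1:**
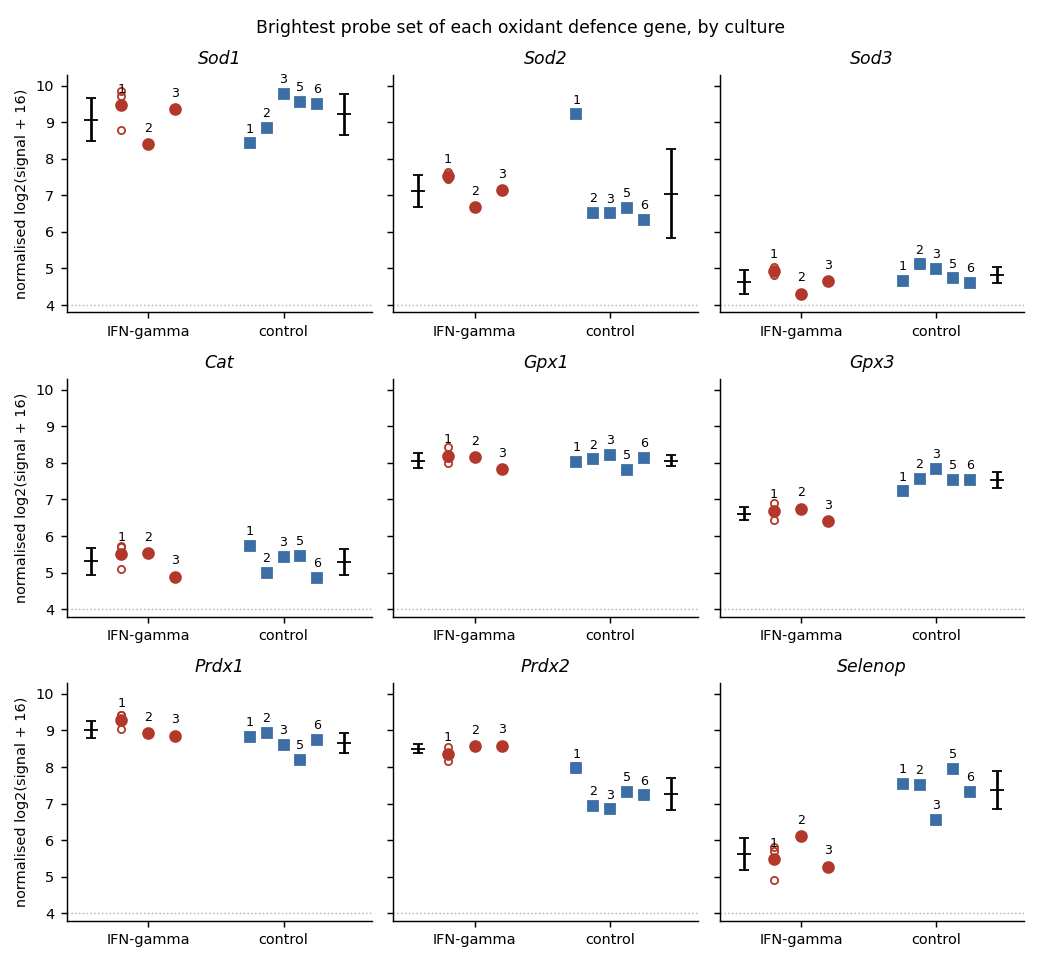
Normalised log2(signal + 16) of the brightest probe set of each gene (y axis) in the IFN-gamma cultures (red circles, left) and the control cultures (blue squares, right), numbered by culture. Open circles are the 3 technical arrays of IFN-gamma culture 1, black bars are group means ± SD over 3 and 5 cultures, and the dotted line is a signal of 0. The groups do not overlap at Selenop, Gpx3 and Prdx2, and control culture 1 stands alone at Sod2 with a level of 9.21.

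Selenop, the selenium carrier, showed the largest difference of the members. By its brighter probe set its levels were 5.48, 6.11 and 5.27 in IFN-gamma cultures 1, 2 and 3, against 7.53, 7.52, 6.55, 7.95 and 7.32 in control cultures 1, 2, 3, 5 and 6. Every IFN-gamma culture was below every control, and the lowest control was culture 3, the dimmest array. The deposited signals ran from 10.2 (array 1c) to 66.8 (array 1b) on the IFN-gamma arrays and from 31.8 (culture 3) to 282.7 (culture 1) on the control arrays, so before scaling the groups overlapped at the dim control. The mean was 5.62 ± 0.44 (SD, n = 3) with IFN-gamma and 7.37 ± 0.51 (SD, n = 5) in the controls, a log2 fold change of -1.75 ± 0.32 SE (95% confidence interval -2.47 to -1.04, adjusted p = 0.0287, limma). In total RNA of a culture, fewer cells that express a gene and less of its RNA per cell cannot be told apart.

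The fall of Selenop kept its direction in all 19 other settings, with log2 fold changes between -2.18 and -1.48, but passed the threshold in 9 of them. It lost the call without control culture 1 (adjusted p = 0.0571), 2 (0.072), 5 (0.0577) or 6 (0.0733), without IFN-gamma culture 1 (0.148) or 3 (0.169), with no scaling (0.568), with array medians subtracted (0.0552), with a pseudocount of 1 (0.0824) and with the culture number as a block (0.139). Without control culture 3 the log2 fold change was -1.96 (adjusted p = 0.00567). Technical arrays 1a, 1b and 1c read 5.70, 5.83 and 4.92, a spread of 0.49 (SD) that is near the 0.44 between the IFN-gamma cultures. The second Selenop probe set was dim, at 4.24 ± 0.058 with IFN-gamma (SD, n = 3) and 4.44 ± 0.41 in the controls (SD, n = 5), and did not pass (log2 fold change -0.20, 95% confidence interval -0.74 to 0.34, adjusted p = 0.884). Its signal reached 16 on 1 array alone, control culture 5, at 20.6.

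Gpx3, the extracellular glutathione peroxidase found in plasma, fell as well. Its brighter probe set read 6.68, 6.75 and 6.40 in IFN-gamma cultures 1, 2 and 3, against 7.22, 7.56, 7.84, 7.53 and 7.54 in control cultures 1, 2, 3, 5 and 6. The groups did not overlap and no control culture stood apart. The means of 6.61 ± 0.18 (SD, n = 3) with IFN-gamma and 7.54 ± 0.22 (SD, n = 5) in the controls gave a log2 fold change of -0.93 ± 0.18 SE (95% confidence interval -1.34 to -0.52, adjusted p = 0.0446, limma). The direction held in all 19 other settings (-1.05 to -0.43), and the call held in 6. Left out singly, each culture other than control culture 1 took the call away, with an adjusted p of 0.0583 without control culture 3 and 0.221 without IFN-gamma culture 3 at the extremes. Without control culture 1 it stayed (adjusted p = 0.032), and with no scaling and with array medians subtracted the log2 fold change shrank to -0.43 and -0.55 (adjusted p = 0.895 and 0.548). The dimmer Gpx3 probe set had a log2 fold change of -0.48 (95% confidence interval -1.33 to 0.37, adjusted p = 0.785), with overlapping groups and a control range of 4.42 to 6.18.

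Over the 8 cultures, the levels of 1199 other probe sets of single genes with a mean of at least 6 were compared with those of the 2 fallen members. The genes most like Gpx3 were Capn1, a calpain protease subunit (Pearson r = 0.98), the growth factor gene Igf1 (0.98) and the lipoprotein receptor gene Scarb1 (0.968). Those most like Selenop were Polr2a, the large subunit of RNA polymerase II (r = 0.973), the cathepsin gene Ctsl (0.955) and Sirpa, an inhibitory receptor of macrophages (0.954). These correlations are descriptions over 8 points that share their arrays and the difference between groups.

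**Figure D2:**
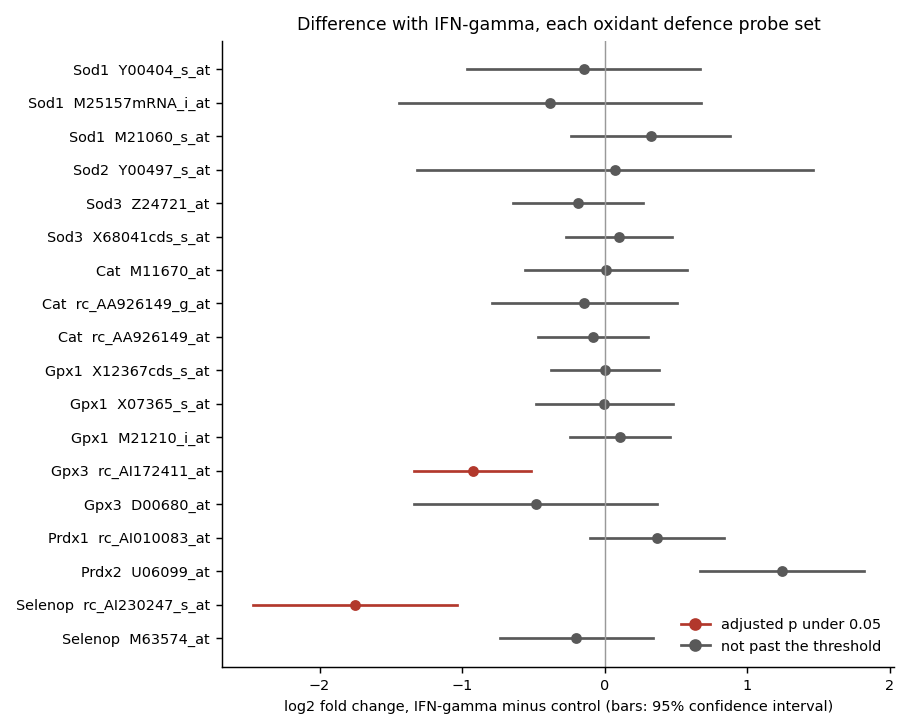
Log2 fold change (IFN-gamma minus control) of each of the 18 probe sets with its 95% confidence interval from limma, grouped by gene. Red marks an adjusted p under 0.05, reached by 1 probe set of Selenop (-1.75) and 1 of Gpx3 (-0.93), while the interval of Prdx2 (0.67 to 1.82) also lies clear of 0.

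The peroxiredoxins, which reduce hydrogen peroxide with thioredoxin, both had positive differences. Prdx2 read 8.36, 8.57 and 8.57 in the IFN-gamma cultures, against 7.96, 6.93, 6.84, 7.32 and 7.23 in control cultures 1, 2, 3, 5 and 6. All IFN-gamma cultures lay above all controls, and the nearest control was culture 1. The log2 fold change was 1.24 ± 0.25 SE (95% confidence interval 0.67 to 1.82, adjusted p = 0.0501, limma), at means of 8.50 ± 0.12 (SD, n = 3) with IFN-gamma and 7.26 ± 0.44 (SD, n = 5) in the controls.

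Prdx2 was thus not called, but it was called in 5 of 19 other settings, and its direction was the same in all of them (1.14 to 1.80). Those 5 were the omission of control culture 1 (log2 fold change 1.42, adjusted p = 0.00848), a pseudocount of 32 (0.0392), dim probe sets left out (0.0272), an intensity trend in the variance (0.0142) and array 1b alone for IFN-gamma culture 1 (0.0412). In deposited signal the IFN-gamma arrays ran from 164.7 to 861.1 and the controls from 37.6 to 427.8, the highest control again being culture 1. Prdx1 read 9.30, 8.92 and 8.86 in the IFN-gamma cultures and 8.19 (culture 5) to 8.93 (culture 2) in the controls, and these overlapped. Its log2 fold change was 0.37 (95% confidence interval -0.10 to 0.84, adjusted p = 0.628).

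Sod2, the mitochondrial manganese enzyme, was the member at which a single culture stood apart. Its levels were 7.54, 6.67 and 7.14 in IFN-gamma cultures 1, 2 and 3, against 9.21 in control culture 1 and 6.53, 6.50, 6.67 and 6.32 in control cultures 2, 3, 5 and 6. Control culture 1 was above every other array of either group, while the remaining 4 controls lay between 6.32 and 6.67. The deposited signal was 111.5 to 372.8 on the technical arrays of IFN-gamma culture 1, 102.4 in IFN-gamma culture 2 and 201.9 in IFN-gamma culture 3, against 1151.9 in control culture 1 and 30.5 to 94.3 in the other controls.

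With all cultures the Sod2 means were 7.12 ± 0.44 (SD, n = 3) with IFN-gamma and 7.04 ± 1.22 (SD, n = 5) in the controls, a log2 fold change of 0.07 ± 0.62 SE (95% confidence interval -1.32 to 1.46, adjusted p = 0.992, limma). The interval is wide enough to hold a rise or a fall of more than 2-fold. Without control culture 1 the control mean dropped to 6.50 ± 0.14 (SD, n = 4) and all 3 IFN-gamma cultures lay above all 4 controls, the nearest pair at 6.668 (IFN-gamma culture 2) and 6.665 (control culture 5). The log2 fold change was then 0.61 ± 0.23 SE, with an unadjusted p of 0.0276 and an adjusted p of 0.281 (limma), so it did not pass either, and 1.76% of all probe sets were called in that fit. Leaving out control culture 2, 3, 5 or 6 or IFN-gamma culture 1 instead turned the sign (-0.14 at the lowest). The 3 technical arrays of IFN-gamma culture 1 read 7.44, 7.56 and 7.62 (SD 0.095). Control culture 1 was hybridised once, and an error of its own array was not tested. Sod2 had 1 probe set, and no other probe set could be set beside it.

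Control culture 1 lay 2.70 above the median of the other 4 controls at Sod2 (6.48-fold), the largest distance above them of all 8740 probe sets in that culture, where the largest distance below them was -2.69. It was also the largest distance above with no scaling (3.90), with array medians subtracted (3.67), with a trimmed mean (3.13) and with a pseudocount of 32 (2.50), and the 19th largest with a pseudocount of 1, which spreads dim probe sets. In the other control cultures the largest distance above ran from 2.21 to 2.80. There 1 probe set, in control culture 2, was at least as far above, and 2 each in control cultures 3 and 5 were at least as far below. The next genes in control culture 1, named here after their values were seen, were the growth factor receptor gene Kdr (2.67), Scgb1a1 (2.32), the splicing factor gene Srsf2 (2.24) and the stress gene Gadd45a (2.17). At Srsf2 it did not stand alone, since the highest other control read 6.35, against 6.91 in control culture 1. At other members control culture 1 was closer to the median of the other controls. It had -1.10 and -1.26 at the 2 brighter Sod1 probe sets, the 177th and 91st lowest distances of the 8740, and 0.88 at Prdx2. At Selenop and Gpx3 it had 0.11 and -0.33 by the brighter probe sets, and -0.20 and 0.79 by the dimmer.

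**Figure D3:**
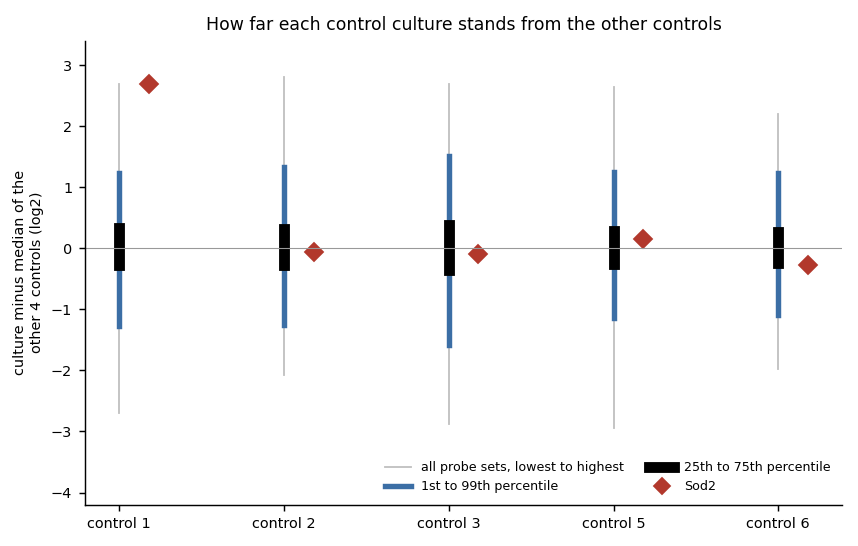
Distance of each control culture from the median of the other 4 controls (y axis, normalised log2 units), over all 8740 probe sets. Grey lines span the lowest to the highest probe set, blue bars the 1st to 99th percentile, black bars the middle 50%, and red diamonds are Sod2, which lies at 2.70 in control culture 1 and between -0.28 and 0.15 in the others.

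Sod1, the cytosolic copper-zinc enzyme, was read by 3 probe sets whose differences had both signs. By the brightest, the levels were 9.45, 8.39 and 9.35 in IFN-gamma cultures 1, 2 and 3 and 8.42, 8.83, 9.78, 9.55 and 9.49 in control cultures 1, 2, 3, 5 and 6. The groups overlapped fully, with a low culture in each (IFN-gamma culture 2 and control culture 1). The log2 fold change was -0.15 ± 0.36 SE (95% confidence interval -0.96 to 0.67, adjusted p = 0.96), and it was positive with no scaling (0.66), array medians subtracted (0.54) and a trimmed mean (0.23). By the second probe set Sod1 read 8.64, 8.03 and 8.14 in the IFN-gamma cultures, against 7.85, 9.50, 9.59, 8.72 and 7.62 in the controls, which spread wider than the IFN-gamma cultures on both sides. Its log2 fold change was -0.38 (95% confidence interval -1.45 to 0.68, adjusted p = 0.884), and 0.34 with no scaling and 0.22 with array medians. The third gave 0.32 (95% confidence interval -0.24 to 0.88, adjusted p = 0.782).

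The technical arrays differed as well. At the brightest Sod1 probe set arrays 1a, 1b and 1c of IFN-gamma culture 1 read 9.71, 8.79 and 9.86, an SD of 0.58 against 0.57 between the 5 control cultures. At the second Sod1 probe set these SDs were 0.51 and 0.91, and at the third 0.43 and 0.41. At the brightest probe set array 1b, the brightest array by median signal, was the low one after normalisation. Its deposited signal there, 1066.1, was higher than the 593.6 of array 1a and the 570.6 of array 1c. After normalisation array 1b was also the lowest at the second probe set (8.08), but the highest at the third (7.92, against 7.10 in array 1a and 7.28 in array 1c). Over the 4180 probe sets with a mean of at least 5 the median SD of the 3 technical arrays was 0.34, against 0.27 between IFN-gamma cultures and 0.47 between control cultures. Control culture 3 stood low at the third Sod1 probe set, at 6.30 against 7.02 to 7.29 in the other controls.

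Gpx1, the cytosolic glutathione peroxidase, differed little between the groups. By its brightest probe set it read 8.20, 8.15 and 7.83 in the IFN-gamma cultures, against 8.03, 8.09, 8.21, 7.81 and 8.14 in control cultures 1, 2, 3, 5 and 6. The 2 ranges nearly coincided, and the log2 fold change was 0.0016 ± 0.17 SE (95% confidence interval -0.38 to 0.38, adjusted p = 0.999). With no scaling it was 0.64 (adjusted p = 0.867) and with array medians 0.52 (adjusted p = 0.718), so the small difference depends on the scaling. The second probe set gave -0.0030 (95% confidence interval -0.48 to 0.48), positive with no scaling (0.56), array medians (0.43) and a trimmed mean (0.15). It read 7.38, 7.32 and 7.94 in the IFN-gamma cultures, against 7.60, 7.13, 7.76, 7.66 and 7.60 in the controls, of which control culture 2 was low. The third was at the floor, with a deposited signal of 11 or less on every array.

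Cat, which splits hydrogen peroxide without a reducing partner, was dim at all 3 probe sets. The brightest read 5.51, 5.53 and 4.88 in the IFN-gamma cultures, against 5.74, 4.99, 5.42, 5.46 and 4.86 in the controls, and the groups overlapped throughout. Its log2 fold change was 0.01 (95% confidence interval -0.56 to 0.58, adjusted p = 0.998) and took both signs across the scalings. The other 2 had -0.14 and -0.08 (adjusted p = 0.95 and 0.953). Sod3, the extracellular superoxide dismutase, lay near the floor, with deposited signals of 3.7 to 18.5 over all arrays at one probe set and 1.5 to 13.2 at the other. Its log2 fold changes of -0.19 (95% confidence interval -0.64 to 0.27) and 0.10 (-0.28 to 0.47) had adjusted p of 0.868 and 0.934 (limma), and a fall from such levels could hardly be measured.

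**Figure D4:**
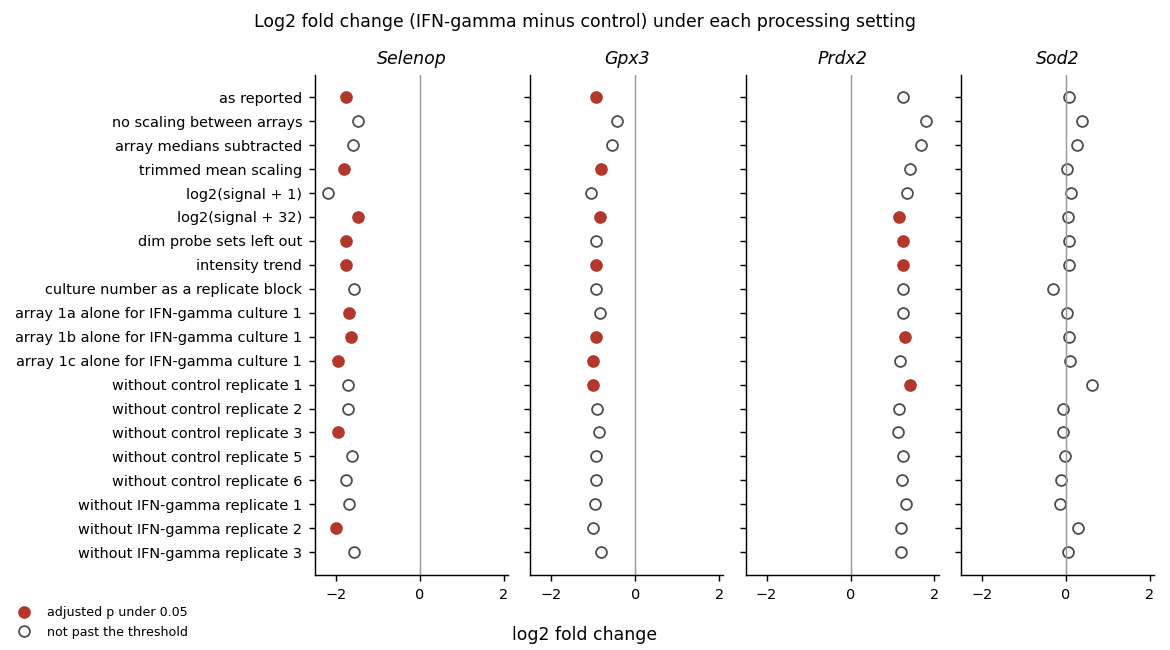
Log2 fold change (IFN-gamma minus control, x axis) of the leading probe set of Selenop, Gpx3, Prdx2 and Sod2 under each processing setting (y axis). Filled points have an adjusted p under 0.05. Selenop and Gpx3 stay left of 0 and Prdx2 right of 0 in every setting shown, and Sod2 moves to 0.61 without control culture 1.

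Genes that supply or use the same chemistry were counted over 5 further lists, beside 0.927% of all probe sets higher and 0.606% lower. Of 18 probe sets for other peroxidases and the thioredoxin system 0 were called in either direction by limma (1 higher and 1 lower at an unadjusted p under 0.05; median log2 fold change 0.10). Txnrd1, the thioredoxin reductase that recharges the peroxiredoxins' partner, had log2 fold changes of 0.68 (adjusted p = 0.214) and 0.56 (adjusted p = 0.777). At the first of these its IFN-gamma cultures, 6.26 to 6.38, lay above all controls, 5.37 to 6.22, and it was called in 1 of 19 other settings, without control culture 1 (log2 fold change 0.83, adjusted p = 0.0408). Gpx4, the phospholipid hydroperoxidase, had -0.81 (adjusted p = 0.201), with 5.89 to 6.54 in the IFN-gamma cultures and 6.79 to 7.62 in the controls.

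Of 35 probe sets for glutathione synthesis, recycling and transferases 0 were called (3 higher and 4 lower unadjusted; median -0.06). Glutathione reductase, Gsr, named after its values were seen, came nearest by 2 of its 3 probe sets (log2 fold changes 0.87 and 0.99, adjusted p = 0.0567 and 0.0838). The first of these was called in 1 of 18 other settings, the intensity trend (adjusted p = 0.0411), and the second in 0 of 19 (adjusted p 0.0545 to 0.366, limma). At the first the controls read 4.16 to 4.48, near the floor. The probe sets higher unadjusted were all of Gsr, and those lower were of Gsta1 and Gstm1. The transferase gene Gsta1, also named after its values were seen, had -0.99, -1.34 and -1.21 (adjusted p = 0.169, 0.379 and 0.254, limma). Of Gclc and Gclm, the subunits of the rate-limiting enzyme of glutathione synthesis, Gclc had -0.21 (adjusted p = 0.929) and Gclm 0.58, 0.34 and -0.14 (adjusted p = 0.479, 0.747 and 0.936).

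Taldo1, the transaldolase of the pentose phosphate pathway that feeds NADPH metabolism, was the only call among the 5 lists. It read 9.11, 8.64 and 8.71 in the IFN-gamma cultures, against 6.53 (culture 2) to 7.74 (culture 1) in the controls, a rise of 3.46-fold (log2 fold change 1.79 ± 0.28 SE, adjusted p = 0.0125, limma). Its call held in 13 of 19 other settings and was lost without IFN-gamma culture 1 (adjusted p = 0.0824), 2 (0.0531) or 3 (0.0672), with no scaling (0.225), with a pseudocount of 1 (0.0824) and with the culture number as a block (0.104). The list it belongs to, of Nrf2 targets and metal-binding defence, had 1 of 18 probe sets higher and 0 lower (4 and 2 unadjusted; median -0.04). In it the heme oxygenase gene Hmox1 had -0.55 and -0.19 (adjusted p = 0.21 and 0.847), both positive with no scaling (0.19 and 0.22) and with array medians (0.072 and 0.093), and the quinone reductase gene Nqo1 had 0.48 and -0.06 (adjusted p = 0.864 and 0.991).

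Of 3 probe sets for the NADPH oxidase and its regulators, which make the superoxide, 0 were called (0 unadjusted). Cyba, its membrane subunit p22phox, read 9.27 to 9.36 in the IFN-gamma cultures and 8.92 to 9.86 in the controls (log2 fold change -0.01, 95% confidence interval -0.54 to 0.53, adjusted p = 0.998), but 0.80 with no scaling, 0.68 with array medians and 0.37 with a trimmed mean. Of 11 probe sets for further selenoproteins and selenium handling, 0 were called and 0 passed unadjusted by limma (median 0.13). That list left out Gpx2, Gpx4, Txnrd1 and Txnrd2, selenoproteins counted above with the other peroxidases and the thioredoxin system. Among these, Gpx4 (log2 fold change -0.81) and Txnrd1 at 1 probe set (0.68) passed unadjusted only (limma). The list of 11 therefore does not cover all selenoproteins outside the members.

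Markers of other brain cells were read beside the falls of Selenop and Gpx3. Of 21 astrocyte marker probe sets, for 8 of 10 genes, 0 were higher and 1 lower (0 and 6 at an unadjusted p under 0.05), and their summed signal was 290 to 322 in the IFN-gamma cultures and 577 to 982 in the controls. The glutamine synthetase gene Glul had negative differences at all 4 of its probe sets. It fell past the threshold at 1 (log2 fold change -1.66, adjusted p = 0.00301), and the others had -0.998, -0.77 and -0.59 (adjusted p = 0.2, 0.179 and 0.383). At 3 of the 4 all IFN-gamma cultures lay below all controls. Without Glul the sums overlapped, at 147 to 160 with IFN-gamma and 136 to 242 in the controls, and the gap junction gene Gja1 stayed under a signal of 16 on every array. Of 16 probe sets for fibroblasts and endothelium 0 were higher and 1, of the collagen gene Col1a1, was lower (log2 fold change -1.20, adjusted p = 0.0239; 0 higher and 4 lower unadjusted), and the summed signal was 193 to 228 with IFN-gamma and 194 to 289 in the controls. The other Col1a1 probe sets had log2 fold changes of -0.16, -2.7e-06 and -0.08, with overlapping groups. Lum stayed under 16 on every array. The part of these cells in the falls was not tested.

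Oligodendrocyte and neuron markers had 0 calls in 15 probe sets each (limma; unadjusted, 2 oligodendrocyte probe sets were lower and 1 neuron probe set higher). Their sums overlapped, at 141 to 161 with IFN-gamma and 136 to 276 in the controls for oligodendrocytes, and 120 to 197 with IFN-gamma and 102 to 259 in the controls for neurons. The neuron gene Syt1 stayed under 16 on every array. Microglia and macrophage markers, at 8 of 13 genes, included the bright genes Lyz2, C1qb, Cd14 and Aif1, while Csf1r (4.88 with IFN-gamma and 4.73 in the controls) and Cx3cr1 (4.91 and 5.19) were dim. Of the 14 microglia and macrophage probe sets 3 were higher, of Lyz2 and C1qb, and 0 lower (4 and 1 at an unadjusted p under 0.05). The integrin gene Itgam (log2 fold change 0.79, adjusted p = 0.0951), with all IFN-gamma cultures above all controls, and Cd14 at 1 of its probe sets (-0.55, adjusted p = 0.429) passed only unadjusted. The summed signal of the microglia and macrophage markers was 6879 to 7967 with IFN-gamma and 2291 to 3425 in the controls. Without Lyz2 and C1qb the sums overlapped (686 to 710 and 573 to 864).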

How the data were processed

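Total RNA was measured on 10 Affymetrix rat arrays, and the authors deposited a linear signal intensity for every probe set. MAS5 and GCRMA are listed in the submitters' processing notes without their roles or versions, so it is unknown which one the authors used for these values. Array medians ran from 7.4 to 23.7, so the intensities were not on a common scale. No 2 arrays shared more than 80 deposited values, and none was taken as a duplicate.

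Signals were transformed to log2(signal + 16) and quantile normalised over the 10 arrays, and the 3 technical arrays of IFN-gamma culture 1 were averaged. The 59 array controls were left out. Groups of 3 and 5 cultures were compared with limma 3.58.1 in R 4.3.3 (group as the only term, two-sided) and adjusted by Benjamini-Hochberg over 8740 probe sets. Precision is limited by the number of cultures, and p-values measure the spread between these cultures, since the labels do not tie each dish to a separate animal.

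Among those tested, 7006 had 1 gene symbol in the platform annotation, 308 several and 1426 none. All 18 member probe sets matched a RefSeq gene by Entrez identifier with the same symbol. The limma step was tested on simulated data. The members, gene lists and tests were chosen with earlier results of these data known. All member probe sets are named, with a preset group of other genes, every called gene of the other lists and the 3 genes most like each called member by Pearson r. Alternatives covered the scaling, pseudocount, dim probe sets, technical arrays, variance trend, replicate block and the omission of each culture. Culture numbers 1, 2 and 3 occur in both groups. Same-numbered cultures did not deviate together from their group means (r = -0.04, -0.01 and -0.0033 over 4180 probe sets). With so few cultures these values cannot exclude pairing. The fit has no block because the labels do not say that the numbers pair cultures. Scan dates or other batches are not given in the sources used here.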

Additional observations from a re-analysis of the deposited data

Results flagged for a closer look

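In 3 of the 18 member probe sets, 1 control culture lay apart from the other 4, by a gap that exceeded Dixon's 95% limit relative to the range of the 5 controls. Over all 8740 probe sets 10.4% did so at either end, and chance alone flags about 1 in 20 groups. Sod2 in control culture 1 had a gap of 0.88 of the range (9.21, next 6.67). Gpx1, by its second probe set, was low in control culture 2 (0.742 of the range, 7.13, next 7.60), and Sod1, by its dimmest probe set, was low in control culture 3, the dimmest array (0.721 of the range, 6.30, next 7.02).

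Among the named genes of the other lists the same held for 5 probe sets. Gclm was high in control culture 2 at 2 probe sets (0.888 and 0.808 of the range). Txnrd1 was low in control culture 3 at one probe set (0.731) and high in control culture 1 at the other (0.757). Gsr was high in control culture 1 at 1 probe set (0.867), where it read 4.48, near the floor.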

How the results depend on the processing

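With no scaling between arrays 38 probe sets were higher and 1 lower, and 0 member probe sets were lower. With array medians subtracted 27 were lower, and 0 members. With log2(signal + 1) 42 were higher and 25 lower, and 0 members were lower. With dim probe sets left out 1 member was lower and 1 higher, and array 1a alone for IFN-gamma culture 1 left 1 lower. The pseudocount of 32, the intensity trend and array 1b alone each gave 1 member higher. With the culture number as a replicate block 17 probe sets were higher and 5 lower, and 0 members were lower. Whether the numbers pair the cultures is not known. Without single replicates the counts ran from 47 to 106 higher, 21 to 50 lower, 0 to 1 members higher and 0 to 1 members lower. The median difference of all probe sets was 0.10 with no scaling, against -0.02 as reported. The cause of these changes was not tested.

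Some differences that were not called changed sign between settings, without passing the threshold. They were not all near 0, since as reported Hmox1 had -0.55 at its brighter probe set and Sod1 -0.38 at its second. With no scaling Sod1 had 0.66 and 0.34, Gpx1 0.56, Cyba 0.80, Gclm 0.0070 and Hmox1 0.19 and 0.22. With array medians Sod1 had 0.54 and 0.22, Sod3 -0.0023, Cat -0.0051, Gpx1 0.43, Cyba 0.68 and Hmox1 0.072 and 0.093. With the trimmed mean Sod1 had 0.23, Cat -0.091, Gpx1 0.15 and Cyba 0.37. In the blocked fit Sod1 had 0.056, Sod2 -0.30, Cat -0.077, Gpx1 -0.052 and 0.050, and Nqo1 0.042. With array 1a alone Gpx1 had -0.015 and 0.035. With array 1b alone Cat had -0.13 and 0.0042, Gpx1 0.044 and Cyba 0.048. With array 1c alone Gpx1 had -0.061. Without single replicates Sod1 lay between -0.35 and 0.19 and Sod2 between -0.14 and 0.61. Cat lay between -0.099 and 0.22 and between -0.42 and 0.062. Gpx1 lay between -0.068 and 0.12, between -0.20 and 0.11 and between -0.020 and 0.17. Cyba lay between -0.11 and 0.12, Gclc between -0.40 and 0.0035, Gclm between -0.24 and 0.017 and Nqo1 between -0.60 and 0.24. These ranges without single replicates cover only the probe sets that changed sign. Other probe sets of Sod1, Cat, Gclm and Nqo1 kept their sign in those fits. Alternatives for genes that are not members were chosen after seeing the data. Signals near the floor limit what can be seen of Sod3, Cat and the dimmer probe sets of Gpx1 and Selenop.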

Other observations

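Because control culture 1 stood so far out at Sod2, its levels at 33 probe sets of 16 inflammatory and interferon genes, chosen after its values were seen, were set against the median of the other 4 controls, as values with no test. It lay above that median at 23 probe sets and below it at 10, with a median distance of 0.26 and a range of -0.37 (Tnf) to 1.73 (Irf7). It was above all other controls at 12 of the 33 and below all of them at 4. The matching shares over all 8740 probe sets were not counted, so these counts cannot be judged against a background. Several of the genes had more than 1 probe set on the list.

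The cytokine gene Il1b had distances of 0.25 to 0.59 at its 3 probe sets, Il1a 0.26 to 0.35, and Il6 0.47 and -0.15. Nfkbia, the gene of a feedback inhibitor of NF-kappa B, had 0.97 and 0.55. The chemokine gene Cxcl2 had 1.25, but its level of 5.45 lay within the other controls (4.19 to 5.59), and Ccl2, Ccl3 and Ccl4 had 0.19 to 0.65. The adhesion gene Icam1 had -0.15 and 1.06. Nos2, which encodes inducible nitric oxide synthase, had -0.22 to 0.37 and Ptgs2, the inducible cyclooxygenase gene, -0.26 and -0.30. Of the interferon-induced genes, Irf7 had 1.73 and 0.011, Mx1 0.91, Irf1 0.10 and -0.26, and Cd74 -0.039 to 0.65. At the 1.73 of Irf7 control culture 1 read 6.65, against 4.54 to 6.38 in the other controls. For Mx1 these were 6.82 and 5.03 to 6.51, and for the 1.06 of Icam1 7.31 and 6.11 to 7.12.

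Among the 81 probe sets called higher with IFN-gamma, control culture 1 was the highest control at 26, against 14 for culture 2, 19 for culture 3 and 11 each for cultures 5 and 6. Among the 53 called lower it was the lowest control at 11, against 6 for culture 2, 16 for culture 3, 8 for culture 5 and 12 for culture 6. Its median distance from the other controls was 0.16 over the higher calls, 0.058 over the lower calls and -0.0036 over all 8740 probe sets. How often each culture was the highest or lowest control over all probe sets was not counted, so the counts above have no background. The calls also came from a fit that used these same control values.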
